A study of Mus musculus with 18 samples.

Results

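The comparison set astrocytes against microglia isolated from the brains of Atxn2-CAG100-KIN mice at an age of 10 months. These knock-in (KIN) animals, on a C57BL/6 background, are homozygous for a stretch of CAG repeats in place of the single glutamine codon of mouse Atxn2, the gene whose expansion causes spinocerebellar ataxia type 2 in humans. Its members are the 3 KIN astrocyte and the 3 KIN microglia libraries, 6 of the 18 libraries of the series. Transcript counts were summed by gene symbol, and a gene was tested where at least 5 reads were present in at least 2 of the 6 libraries, which kept 11783 of 35960 symbols and unnamed entries. The 3 WT astrocyte and the 3 WT microglia libraries, from age-matched C57BL/6 animals without the expansion, served to ask whether the difference between the glial types itself differed by genotype. Each library was made from a bead-selected fraction of an enzymatically dissociated brain. Microglia were taken first by CD11b and astrocytes second by ACSA-2 from the cells that remained, so the order of isolation and the cell type cannot be told apart. Male and female mutant and WT pairs were both used. The study took the fractions one after another from each brain, with 3 mice per genotype, so the 6 KIN libraries come from at most 3 animals. The labels do not say which fractions share an animal, and the main fit treated the libraries as independent. Every p-value therefore measures the spread between these libraries, not between 6 animals.

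Astrocytes and microglia are the glial types that sustain and survey neural tissue. Astrocytes derive from neural progenitors, clear glutamate and potassium from the synaptic cleft, couple through gap junctions, contact vessels with aquaporin-rich endfeet and export lipids to neurons. Microglia derive from yolk-sac myeloid progenitors, depend on CSF1R signalling, and carry the phagocytic, complement, Fc receptor and antigen presentation machinery of the brain. In many disease models microglia lower their homeostatic genes and raise a program around Trem2, Apoe, Spp1, Gpnmb and Lpl that is called disease-associated, while astrocytes raise intermediate filaments and other reactive genes.

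The given markers put each library on its labelled side. Aqp4, the water channel of astrocyte endfeet, had 67, 55 and 64 counts in KIN astrocytes 1 to 3 and 0, 1 and 0 in KIN microglia 1 to 3. Fgfr3, a fibroblast growth factor receptor of the astrocyte lineage, had 144, 68 and 83 counts against 3, 3 and 0. The 2 fractions did not overlap for either gene, and the ratios of their summed counts per depth were 190 (95% counting interval 33.6 to 7533) and 50.2 (22.8 to 138). Aif1, the calcium-binding protein IBA1 of microglia, had 0, 1 and 0 counts in astrocytes against 106, 101 and 113 in microglia, a ratio of 314 (55.9 to 12430) in the other direction. Tmem119, a transmembrane protein restricted to resident microglia, had no read in any KIN astrocyte library against 212, 183 and 191 in microglia, at least 191.5-fold higher with a floor of 3 counts over the group. All such intervals and floors cover counting error only. Atxn2 itself was read at 37, 19 and 19 counts in astrocytes and 21, 17 and 18 in microglia, and its difference of 0.44 (log2, SE 0.277, adjusted p = 0.193) did not pass the test.

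The 6 libraries held 2478111 to 2931018 counts, of which 76.9 to 81.1% fell on the 10 most abundant symbols of each library. Creb5 alone took 30.2% and Zfp101 26.0% on average. Of all KIN glial counts 52.7% lay on transcripts annotated as protein-coding, 31.6% on transcripts without a defined coding sequence and 12.4% on retained introns, and the counts of most named genes were small. Genes read in other cells were present as well. Summed over the list, the oligodendrocyte lineage reached 1222 to 1283 CPM (TMM-scaled counts relative to library depth) in KIN astrocytes against 105 to 143 in KIN microglia. In the same astrocyte libraries the lists of astrocyte transport and of astrocyte identity below summed to 861 to 964 and 1144 to 1235 CPM. Of the 19 tested oligodendrocyte genes 17 were called higher in astrocytes, against 20.3% of all genes. Mog, a glycoprotein of the myelin surface, had 110, 54 and 77 counts in astrocytes and 1, 0 and 1 in microglia. Ependymal and choroid plexus markers reached 248 to 366 CPM against 65.5 to 137. Of 11 tested, 10 were called higher in astrocytes, against 20.3% of all genes, among them the ciliary factor Foxj1 with 56, 33 and 45 counts against 1, 0 and 1. Neuronal markers were called higher in astrocytes in 5 of 18 tested (median 0.70), against 20.3% of all genes, and endothelial and pericyte markers in 5 of 14 (median 1.18), with none called in microglia. Border macrophage and monocyte markers lay the other way, at 34.4 to 46.6 CPM in astrocytes and 175 to 223 in microglia (13 of 15 tested called there against 18.5% of all genes), although Vim (1.59) and S100a6 (1.44) of the same list were called in astrocytes. Among 7 tested genes of other blood cells 3 were called each way (median 1.39), against 20.3% of all genes in astrocytes and 18.5% in microglia. These were the globin genes Hba-a1, Hba-a2 and Hbb-bs in astrocytes and Ighm, S100a8 and S100a9 in microglia. The neutrophil gene S100a8 was uneven, with 39, 153 and 44 counts in microglia. Their part in the results below was not tested, and in bulk fractions fewer cells of a type and less RNA per cell cannot be told apart.

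Across all genes the KIN glial types differed widely. With edgeR's quasi-likelihood test, an adjusted p of at most 0.05 and a change of at least 2-fold, 2396 genes (20.3% of those tested) were called higher in astrocytes and 2184 (18.5%) higher in microglia, together 4580 (38.9%). Calls in microglia included 182 of 407 tested olfactory and vomeronasal receptor symbols and 186 of 410 pseudogenes, against 1 and 16 in astrocytes. The libraries of the 2 fractions did not overlap for 6085 genes (51.6%). A fold of 16 or more was seen for 413 genes called in astrocytes and 327 called in microglia. Genes called in one fraction with at most 3 counts in every library of the other numbered 945 for astrocytes and 661 for microglia, and 111 and 110 of these had no read there at all. The median log2 fold change over all tested genes was 0.02 and the median of its size 0.85. Astrocytes over microglia is the direction of every fold change given here.

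The genes that separated the fractions most cleanly were those with the highest CPM in one fraction and at most 3 counts in each library of the other. On the astroglial side S100b, a calcium-binding protein, had 400, 194 and 245 counts against 2, 3 and 2. Aldoc, the brain aldolase of glycolysis, had 308, 162 and 254 counts against 1, 1 and 2, and Gpr37l1, an orphan receptor of astrocytes, 230, 122 and 182 against 0, 1 and 1. The summed ratios were 122 (59.1 to 305) for S100b, 185 (71.8 to 679) for Aldoc and 272 (75.0 to 2254) for Gpr37l1. Slc6a11, a GABA transporter, followed with 169, 84 and 156 counts against 0, 1 and 1. Lgi3, a secreted leucine-rich protein, had 280, 195 and 223 counts against 2, 0 and 0. Cmtm5, a gene also used by oligodendrocytes, stood at a ratio of 215 (59.1 to 1779), and the tubulin-binding Stmn4 at 112 (47.6 to 346). The list was thus shared between astrocyte genes and genes of other neural cells.

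On the microglial side C1qa, a chain of the initiating complement protein, had 1063, 1204 and 1301 counts against 1, 0 and 0 in astrocytes. Its level was 465 ± 18.6 CPM (SD, n = 3) in microglia, and the ratio of summed counts was 3498 (628 to 138200). C1qb had 537, 467 and 579 counts against 0, 2 and 1, and C1qc 279, 308 and 349 against 1, 0 and 0. All 3 chains were thus near the limit of detection in every astrocyte library. Trem2, the lipid-sensing receptor of microglia, had 394, 349 and 356 counts against 2, 0 and 1, and its adaptor Tyrobp 433, 222 and 220 against 0, 0 and 1. Ctss, the lysosomal protease cathepsin S, had no read in astrocytes and 316, 252 and 223 in microglia (at least 258.5-fold), and the chemokine Ccl4 none against 224, 214 and 222 (at least 216-fold). Tyrobp was highest in KIN microglia 1. The gap between the fractions follows for these genes from the way they were chosen.

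**Figure D1:**
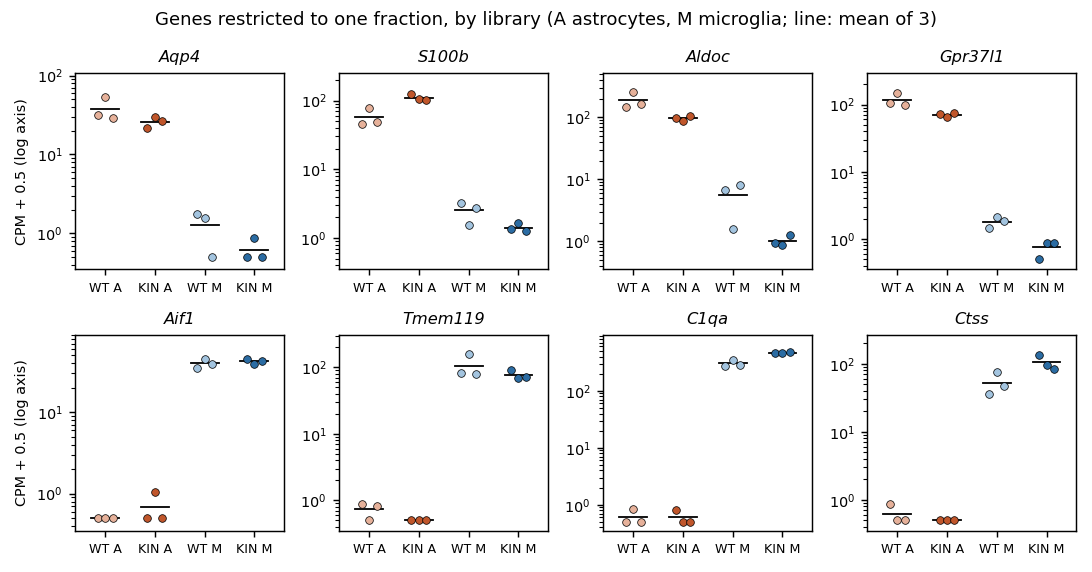
Levels of 4 genes restricted to astrocytes (top) and 4 restricted to microglia (bottom), in CPM plus 0.5 on a log axis, with 1 point per library and a line at the mean of 3. The KIN groups do not overlap for any of the 8 genes. Aqp4, Aif1 and Tmem119 were given markers, and for the other genes this follows from their choice by low counts in the other fraction. C1qa averaged 465 CPM in KIN microglia and 0.104 in KIN astrocytes.

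Genes of astrocyte transport and coupling were called higher in astrocytes for 19 of 22 members and in microglia for none, against 20.3% and 18.5% of all genes. Their median was 4.42 (4.23 with genes unread in microglia set to their bound). Slc1a2, the main glutamate transporter GLT-1, had 297, 186 and 270 counts against 5, 4 and 3, a difference of 5.97, and Slc1a3, the transporter GLAST, 225, 136 and 202 against 25, 31 and 36, a difference of 2.65. Slc1a3 was therefore the less exclusive of the pair, although its libraries did not overlap. Gja1, encoding connexin 43, differed by 4.30 and the Na,K-ATPase subunit Atp1b2 by 6.26. Glul, the glutamine synthetase that closes the glutamate cycle, stood apart with 177, 89 and 138 counts in astrocytes and 88, 131 and 134 in microglia. Its difference was 0.22 (SE 0.194, adjusted p = 0.361), with a 95% interval of -0.16 to 0.61 that lies within 2-fold. The main Glul transcript had 131, 62 and 107 counts in KIN astrocytes against 63, 89 and 90 in KIN microglia. In WT it had 181, 313 and 249 in astrocytes against 116, 72 and 73 in microglia, so the likeness is stated for KIN only. For no gene of this list did the difference between the fractions pass the test against WT described below. The cystine exchanger Slc7a11 was alike at 0.07 (-0.53 to 0.67).

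Among 32 tested genes of astrocyte identity and metabolism 29 were called higher in astrocytes and none in microglia, against 20.3% and 18.5% of all genes. Their median was 5.39 (5.22 at the bound). Htra1, a secreted protease, had 99, 53 and 89 counts and none in microglia, at least 81.9-fold. Mlc1, a membrane protein of perivascular endfeet, had 117, 61 and 107 against 0, 1 and 0. The folate enzyme gene Aldh1l1, a widely used astrocyte marker, differed by 5.08 on 38, 24 and 16 counts against 0, 2 and 0. Gldc, of the glycine cleavage system, and Phkg1, a glycogen kinase subunit, did not pass the test at 0.58 and 0.33. When only transcripts annotated as protein-coding were counted, Gldc, Phkg1 and Slc7a11 were called higher in astrocytes at 1.67, 1.07 and 2.01, an alternative chosen after seeing the data.

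Reactive astrocyte genes were poorly read. Of 27 listed, 15 were tested, 7 were called higher in astrocytes and 3 in microglia, against 20.3% and 18.5% of all genes, and the median was 0.81. Gfap, the filament protein of reactive astrocytes, had 65, 32 and 42 counts against 2, 3 and 0, and the complement gene C4b 157, 80 and 87 against 22, 29 and 26. Serpina3n, a protease inhibitor, had only 12, 8 and 2 counts against 1, 0 and 0. Cxcl10, an interferon-induced chemokine counted among reactive genes, was read in microglia only, with 18, 15 and 14 counts (at least 15.4-fold). Lcn2 and Cd44 did not reach the read minimum and had at most 1 count in any astrocyte library. The reactive list without KIN astrocytes 2 held 4 calls in astrocytes, against 7 with it.

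Microglial homeostatic genes were called higher in microglia for 25 of 26 tested members, against 18.5% of all genes, with a median of -5.98 (-5.54 at the bound). Besides Tmem119 and Trem2, the list was led by Fcrls, an Fc receptor-like protein, with no read in astrocytes and 212, 136 and 156 in microglia. Csf1r, the receptor on which microglia depend, had 4, 8 and 6 counts in astrocytes and 493, 465 and 454 in microglia. P2ry12, the purinergic receptor of process motility, had 1, 1 and 0 against 39, 55 and 48, and the fractalkine receptor Cx3cr1 6, 2 and 7 against 356, 331 and 380. Less separated members were Sparc, a matrix protein, at -1.59 with 162, 102 and 121 counts against 360, 397 and 437, and the anticoagulant Pros1 at -2.09. Adora3, an adenosine receptor, was not called at -0.42 (adjusted p = 0.293), and most of its astrocyte counts, 17, 9 and 13, came from a retained-intron transcript. Counted on protein-coding transcripts alone it differed by -4.83 (adjusted p = 8.12e-08).

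Receptor signalling through TREM2 and Fc receptors followed the same side in 19 of 20 tested genes, against 18.5% of all genes (median -5.27, -4.97 at the bound). The phosphatase Ptpn6 had no read in astrocytes and 97, 144 and 102 in microglia, and Fcer1g, the shared Fc receptor gamma chain, had 0, 1 and 0 against 136, 84 and 81. Inpp5d, the inositol phosphatase SHIP1, had 7, 1 and 5 against 82, 127 and 103 (-4.52, and -7.26 on protein-coding transcripts alone). Of 18 tested complement genes 9 were called in microglia and 2 in astrocytes, against 18.5% and 20.3% of all genes. The receptor genes Itgam and C3ar1 went with C1q at -5.85 and -5.86, while C4b (2.09) and clusterin, Clu (5.21), were astroglial. C3 itself had at most 15 counts in any library and was not called at -1.18 (adjusted p = 0.06). The C1q chains were thus read in microglia and the C4 component mainly in astrocytes.

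Antigen presentation genes were called higher in microglia for 20 of 21 members, against 18.5% of all genes (median -3.20). The class II genes showed wider differences, such as H2-Ab1 with 1, 1 and 0 counts against 57, 114 and 70, and the invariant chain Cd74 with 1, 4 and 2 against 69, 98 and 78. Class I genes were read in both fractions. H2-K1 had 39, 32 and 39 counts in astrocytes and 197, 300 and 333 in microglia (-2.84), and B2m, their light chain, 43, 24 and 40 against 423, 378 and 429 (-3.49). Cd74, H2-Aa and Lyz2 also mark border macrophages, which the CD11b beads would retain, and the macrophage receptor Mrc1 was present at 12, 20 and 18 counts in microglia against 1, 0 and 0. Its part in the class II values was not tested.

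Disease-associated microglial genes were called higher in KIN microglia for 28 of 34 tested members and in astrocytes for 1, against 18.5% and 20.3% of all genes. The 1 called in astrocytes was Fabp5 (1.20), and the median was -2.88. The Fabp5 call was lost with DESeq2 (adjusted p = 0.13) and without KIN astrocytes 1 (0.071), KIN astrocytes 3 (0.0753) or KIN microglia 1 (0.158). In KIN astrocytes 7 members had no read, the chemokines Ccl4 and Ccl6, the receptor Lilrb4a and another 4. The latter were Cd68, a lysosomal glycoprotein with 192, 138 and 145 counts in microglia (at least 155-fold), the integrin Itgax with 43, 50 and 45 (at least 45.1-fold), the protease inhibitor Cst7 with 68, 23 and 38 (at least 42.2-fold) and the phosphoprotein Spp1 with 27, 27 and 33 (at least 28.4-fold). Cst7 and Cd68 were highest in KIN microglia 1, whereas Itgax and Spp1 varied little among the microglia libraries. Other members were abundant in both glial types. Ctsd, the aspartic protease cathepsin D, had 227, 120 and 161 counts in astrocytes against 3792, 3103 and 3762 in microglia (-4.37), and Cst3, the secreted inhibitor cystatin C, 455, 231 and 361 against 5250, 3405 and 3500 (-3.54). Apoe, the main brain lipid carrier, had 1480, 836 and 1064 against 4346, 3839 and 3268 (-1.74, SE 0.232, adjusted p = 6.67e-09). The ferritin heavy chain Fth1 was alike at 0.29 (-0.13 to 0.71), whereas the light chain Ftl1 was higher in microglia at -2.15.

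The lysosome is common to both glial types, yet part of its genes was restricted. Of 46 tested, 24 were called in microglia and 1, the glycogen-degrading Gaa (1.37), in astrocytes, against 18.5% and 20.3% of all genes, with a median of -1.59. The called members included the hydrolases Ctsz (-4.52), Gusb (-3.71) and Man2b1 (-3.71) and the membrane protein Laptm5 (-7.81). The 8 tested genes of the proton pump and its accessory proteins held no call. The membrane glycoprotein Lamp1 had 140, 77 and 110 counts against 108, 134 and 107 (-0.06), Atp6v1a differed by -0.06 and Atp6ap1 by -0.22, and the intervals of 11 lysosomal genes lay within 2-fold.

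**Figure D2:**
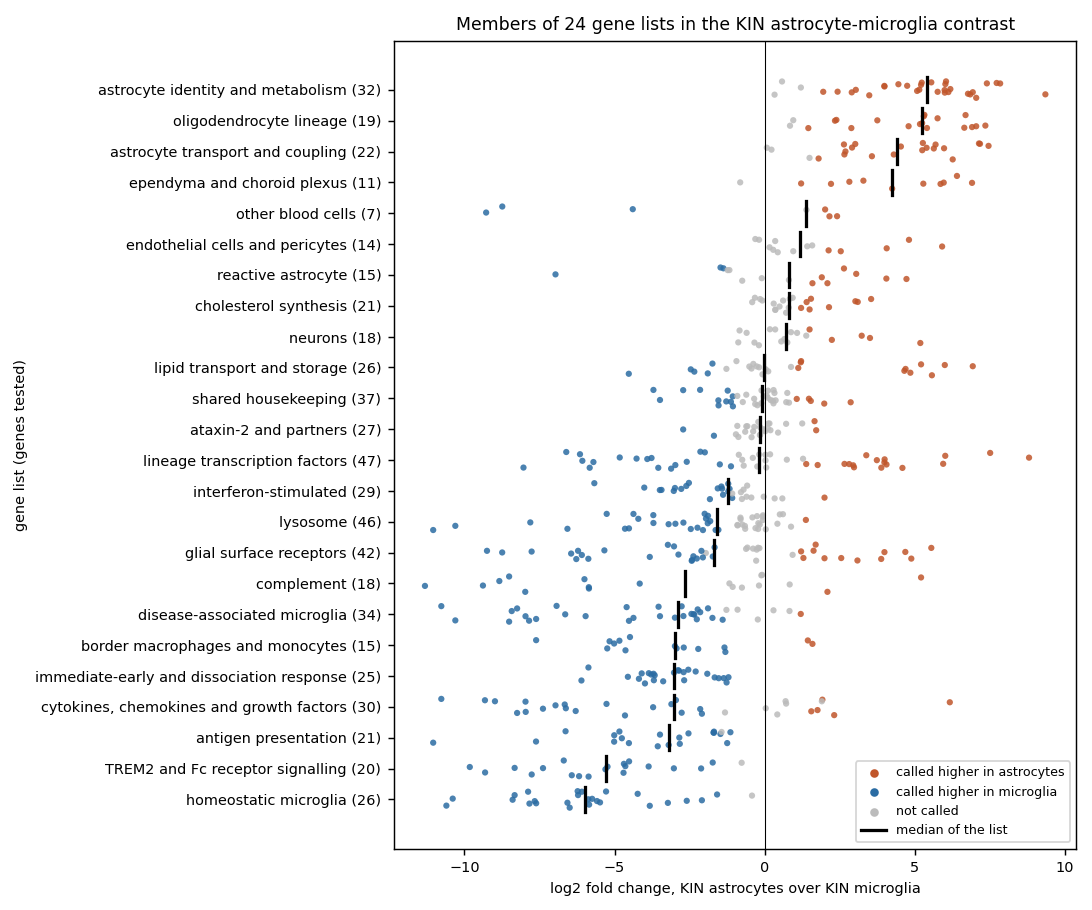
Log2 fold change, KIN astrocytes over KIN microglia, of every tested member of 24 gene lists, with 1 point per gene and a bar at the median of the list. Medians run from 5.39 for astrocyte identity to -5.98 for homeostatic microglia, and lists of shared machinery lie near 0.

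Secreted signals were called in microglia in 19 of 30 tested genes and in astrocytes in 5 (median -3.03), against 18.5% and 20.3% of all genes. Tnf had 1, 0 and 0 counts in astrocytes against 111, 114 and 123 in microglia, and Il1b none against 80, 89 and 72. Grn, the lysosomal growth factor progranulin, had 12, 9 and 15 counts against 308, 294 and 339. Astrocytes were higher for Vegfa (1.76), Il18 (1.55), the fractalkine gene Cx3cl1 (1.92), the chemokine Cxcl14 (2.31) and Il33, an alarmin with 10, 10 and 6 counts and none in microglia. For Tgfb1 the symbol sum and the coding transcript differed. The sum was 45160, 24009 and 32542 counts in astrocytes against 17935, 24194 and 21975, nearly all from a retained-intron transcript, whereas the coding transcript had 0, 1 and 0 counts in astrocytes and 67, 64 and 70 in microglia.

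Surface receptors were called in both directions, 12 of 42 tested in astrocytes and 21 in microglia, against 20.3% and 18.5% of all genes. Those higher in astrocytes included the growth factor receptors Fgfr2 (4.68) and Ntrk2 (2.55), the glutamate receptor Grm3 (3.09) and the GABA receptor Gabbr1 (1.99). Those higher in microglia included the cytokine receptor Il10ra with no read in astrocytes and 57, 99 and 75 in microglia, the toll-like receptor Tlr2 with 1, 0 and 0 against 34, 39 and 49, and the nucleotide receptor P2ry6 with none against 50, 62 and 50. The interferon gamma receptor was divided, since Ifngr1 differed by -2.38 while Ifngr2 did not pass the test at -0.22 (-0.62 to 0.18). The scavenging receptor Lrp1 was read at 311, 150 and 240 counts in astrocytes and 244, 321 and 290 in microglia and was alike at -0.27 (-0.65 to 0.12).

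Interferon-stimulated genes were called higher in microglia in 18 of 29 tested and in astrocytes in 1, against 18.5% and 20.3% of all genes, with a median of -1.21. Bst2, a membrane protein that tethers enveloped viruses, had 11, 14 and 12 counts against 60, 85 and 92. Most members were low, such as Isg15 with 4, 9 and 3 counts against 7, 15 and 17, and without KIN microglia 3 the number called in microglia was 10. Ifi27 was the exception at 1.99, with 78, 45 and 49 counts in astrocytes against 13, 11 and 20. Immediate-early and dissociation response genes were called higher in microglia in 25 of 25, against 18.5% of all genes. Their sum was 226 to 269 CPM in astrocytes and 1731 to 1958 in microglia. Zfp36, which destabilises inflammatory mRNAs, had 21, 6 and 12 counts against 730, 1037 and 971 (-6.10), Junb 22, 22 and 20 against 344, 409 and 395 (-4.10), and Fos 100, 41 and 57 against 203, 292 and 257 (-1.91). These genes respond to enzymatic dissociation, which both fractions underwent, and their part in the other microglial values was not tested.

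Lineage transcription factors accounted for calls in both directions, 17 in astrocytes and 18 in microglia among 47 tested, against 20.3% and 18.5% of all genes, with a median of -0.18. Ikzf1, a zinc finger factor of blood lineages, had no read in astrocytes and 30, 37 and 32 in microglia. Spi1, encoding PU.1, the master factor of myeloid cells, had 0, 1 and 0 against 57, 45 and 34, and Irf8, its partner, 4, 0 and 1 against 118, 136 and 113. In the other direction Sox8 had 77, 38 and 51 counts and none in microglia, and Sox9, the factor of astroglial fate, 85, 34 and 59 against 4, 5 and 2. Sox8 is also a factor of the oligodendrocyte lineage, as is Sox10, with 71, 42 and 48 counts against 0, 1 and 0. Nfia, a factor of gliogenesis, was not separated. It had 160, 108 and 155 counts in astrocytes and 150, 134 and 138 in microglia (0.05, -0.34 to 0.44), whereas its relatives Nfib and Nfix were higher in astrocytes at 2.97 and 1.38. Pax6 and Lhx2, of neural progenitors, were alike at 0.18 and 0.02.

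**Figure D3:**
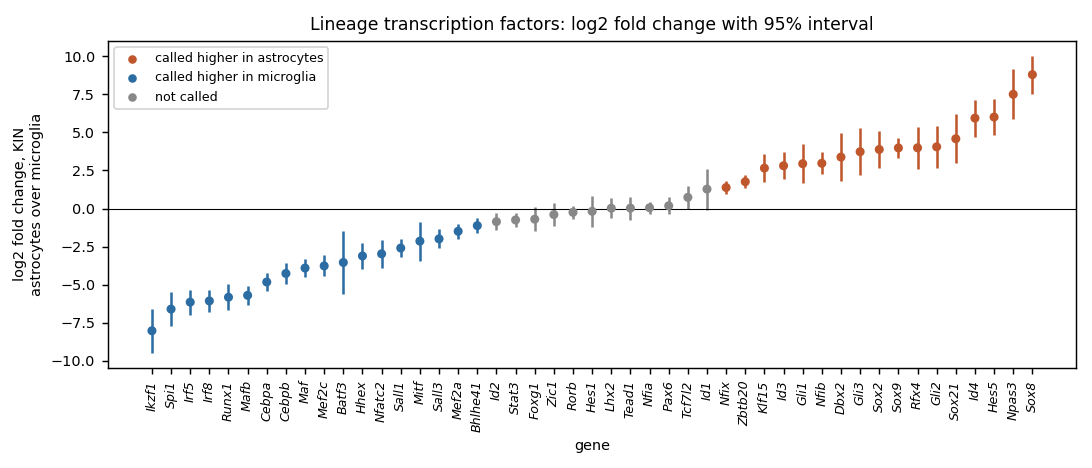
Log2 fold change, KIN astrocytes over KIN microglia, of the 47 tested lineage transcription factors with their 95% intervals, coloured by call. Ikzf1, Spi1 and Irf5 lie lowest, Sox8 and Npas3 highest, and Nfia, Pax6 and Lhx2 are among the uncalled genes near 0.

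Promoters of the tested genes were then searched for letters bound by transcription factors. RefSeq promoters (GRCm38.p6, 250 bases before each start) matched 8807 of the 11783 tested genes, with 11357 promoters. Letters and their reverse complements were sought on both strands, for PU.1 GAGGAAGT, for the interferon element GAAA followed by GAAA after any 2 bases, for NFI TTGGC followed by GCCAA after any 5 bases, for AP-1 TGANTCA and for SOX ACAAAG. PU.1 letters were in 4.7% of the promoters of genes called in microglia, 1.26% of those called in astrocytes, 2.47% of all tested and 2.44% of all promoters in the RefSeq table. The interferon element was in 4.19, 1.71, 2.6 and 2.98%, AP-1 letters in 5.84, 5.01, 4.75 and 6.75% and SOX letters in 13.4, 14.0, 12.1 and 16.5%. NFI letters were in 2 promoters of astrocyte-called genes and in none of the microglia-called ones. These shares are a description, without a test, and a match is not a site. A set of 4 microglial genes is printed to show such letters in their place. The capitals in each line mark the matches, on either strand. C1qc (chr4:136892915-136893164, minus strand) carries PU.1 letters 195 bases before its start on the opposite strand, Inpp5d (chr1:87620062-87620311, plus strand) 20 bases before it on the same strand, Ctss (chr3:95526536-95526785, plus strand) an interferon element 21 bases before it with SOX letters, and Spp1 (chr5:104434861-104435110, plus strand, the first of its listed starts) PU.1 letters, an interferon element and SOX letters.
C1qc: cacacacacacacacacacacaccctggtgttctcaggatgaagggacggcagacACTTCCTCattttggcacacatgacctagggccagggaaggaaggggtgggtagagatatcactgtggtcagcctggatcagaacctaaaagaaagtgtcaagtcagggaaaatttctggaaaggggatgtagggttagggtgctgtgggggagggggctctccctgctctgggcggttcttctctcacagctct
Inpp5d: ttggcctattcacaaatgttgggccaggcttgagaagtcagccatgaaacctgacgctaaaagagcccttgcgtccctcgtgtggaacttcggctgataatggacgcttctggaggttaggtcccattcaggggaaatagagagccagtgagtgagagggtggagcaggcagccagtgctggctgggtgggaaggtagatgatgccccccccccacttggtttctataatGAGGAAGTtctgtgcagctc
Ctss: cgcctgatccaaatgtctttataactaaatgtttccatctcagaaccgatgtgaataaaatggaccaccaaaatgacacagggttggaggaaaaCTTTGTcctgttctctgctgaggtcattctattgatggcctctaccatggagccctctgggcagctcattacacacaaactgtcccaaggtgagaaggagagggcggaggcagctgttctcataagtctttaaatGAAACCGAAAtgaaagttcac
Spp1: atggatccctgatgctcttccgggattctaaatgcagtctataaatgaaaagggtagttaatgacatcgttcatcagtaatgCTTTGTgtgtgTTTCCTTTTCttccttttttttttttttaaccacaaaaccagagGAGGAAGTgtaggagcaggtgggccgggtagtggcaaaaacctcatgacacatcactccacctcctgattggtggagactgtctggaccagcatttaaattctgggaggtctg

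Lipid genes were called in both directions. Cholesterol synthesis genes were called higher in astrocytes in 8 of 21 tested (against 20.3% of all genes) and in microglia in none (median 0.80). Srebf1, a regulator of lipid synthesis, had 165, 85 and 109 counts against 7, 12 and 12 (3.54), its relative Srebf2, of the cholesterol branch, differed by 2.14, and Fdps, an isoprenoid synthase, by 3.02. For lipid transport and storage 10 of 26 tested were called in astrocytes and 5 in microglia (median -0.02), against 20.3% and 18.5% of all genes. Apod, a lipocalin, had 411, 220 and 270 counts against 4, 6 and 9, and Abca2, a lysosomal lipid transporter, 416, 170 and 227 against 9, 8 and 14. Whether these reads came from astrocytes or from oligodendrocyte-lineage cells in the fraction was not tested. The phospholipase Pla2g15 had 2, 2 and 4 counts against 55, 57 and 86, and Npc2, the soluble cholesterol carrier of the lysosome, 31, 19 and 30 against 118, 106 and 81, while its membrane partner Npc1 went the other way at 0.88, below 2-fold. The exporters Abca1 and Abcg1 were alike at -0.44 and -0.38, both within 2-fold.

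Members of 6 among 24 gene families were called on opposite sides. In the TAM family of phagocytic receptors Mertk (-3.23) and Axl (-2.26) were higher in microglia. Tyro3 (4.88) was higher in the astrocyte fraction, with 66, 34 and 55 counts against 2, 3 and 0. Hexokinases divided into Hk1 (2.09) in astrocytes and Hk2 (-5.04) and Hk3 (at least 12.1-fold) in microglia. Sparc (-1.59) and Sparcl1 (6.18) were likewise opposed, as were the glutathione peroxidases Gpx1 (-2.64) and Gpx4 (1.19) and the factors Sall1 (-2.60) and Sall2 (1.75). Receptors of ApoE divided into Trem2 in microglia and Vldlr (4.85) and Lrp4 (1.81) in astrocytes.

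Genes shared by the fractions were sought as those whose 95% interval lay within 2-fold. This held for 1869 genes (15.9%), none of them called, while 5334 of the 7203 uncalled genes had a wider interval and were left undecided at this depth. Among ataxin-2 and its partners of mRNA processing 11 of 27 lay within 2-fold, 2 were called in astrocytes and 2 in microglia, against 20.3% and 18.5% of all genes, and the rest were undecided. Pabpc1, the poly(A)-binding protein that ataxin-2 contacts, was the widest, with 25, 16 and 10 counts in astrocytes against 110, 100 and 135 (-2.72, adjusted p = 3.7e-14). Cyfip1 (-1.69) and its relative Cyfip2 (1.66) were opposed, and G3bp1 and Atxn2l lay at 0.16 and -0.15. Cyfip2 lost its call without KIN microglia 3 (adjusted p = 0.0569). The other gene called in astrocytes, the decapping factor Dcp1a (1.71), lost it with DESeq2 (adjusted p = 0.119) and without KIN microglia 1 or 3 (0.0851 and 0.0647), and it fell below the read minimum without KIN astrocytes 1 or 3. Of 37 tested housekeeping genes 5 were called in astrocytes and 11 in microglia (against 20.3% and 18.5% of all genes), including Actb (-1.13) and Tuba1a (2.86), while Gapdh, Tbp, Ppia and Polr2a lay within 2-fold at 0.27, 0.11, 0.29 and -0.24.

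The contrast was then set against WT. In a fit of all 12 glial libraries 2416 (18.2%) genes were called in KIN astrocytes and 2199 (16.6%) in KIN microglia, against 1933 (14.6%) and 1606 (12.1%) for WT, and the median size of the difference was 0.86 (log2) in KIN and 0.70 in WT. Summed over the neuronal list, WT astrocytes had 120 to 337 CPM and KIN astrocytes 92.0 to 127, which overlapped, and WT microglia had 65.5 to 175 against 45.2 to 53.4 in KIN microglia, which did not. The interaction, which tests whether the astrocyte-microglia difference itself differed by genotype, was called for 152 of 13277 genes (1.14%). The difference was wider in KIN for 72 (0.542%), narrower for 7 (0.0527%) and of opposite sign for 73 (0.55%). These classes go by sign and size of the estimates alone, so opposite sign includes WT differences near 0, such as 0.0075 for Usp29. Of the 152, 25 were olfactory or vomeronasal receptor symbols, all with a negative interaction, and 19 had a Gm, Rik or unnamed identifier. Among the other 108 symbols 55 were wider, 7 narrower and 46 of opposite sign. Leaving out single libraries moved the count between 69 (without WT astrocytes 3) and 300 (without WT astrocytes 2). The genes below were chosen among listed genes after their values were seen, and for most of them library counts of some or all groups are given.

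Apoe changed sign between the genotypes. WT astrocytes had 1010, 1733 and 1158 counts and WT microglia 415, 519 and 277, whereas in KIN it was microglia that had more, at 4346, 3839 and 3268 against 1480, 836 and 1064. The difference went from 1.38 in WT to -1.76 in KIN, an interaction of -3.14 (SE 0.381, adjusted p = 1.22e-07). All KIN microglia libraries lay above all others, while KIN and WT astrocytes overlapped. Axl, a TAM receptor, had 102, 81 and 76 counts in KIN microglia and 17, 15 and 9 in WT microglia, against 25, 12 and 16 in KIN and 13, 30 and 25 in WT astrocytes (interaction -2.77, SE 0.440, adjusted p = 7.04e-05). Lpl, the lipoprotein lipase, went from 0.30 to -2.36 (-2.66, SE 0.407, adjusted p = 4.31e-05), with 55, 64 and 58 counts in KIN microglia against 31, 15 and 27 in WT microglia. Lpl counts of astrocytes were 18, 6 and 10 in KIN and 31, 31 and 43 in WT, again without overlap. The interaction of Apoe, Axl and Lpl was called under each of 17 alternatives, with adjusted p of at most 2.64e-05, 0.00155 and 0.00116.

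Among the 34 tested disease-associated genes 6 had a called interaction, against 1.14% of all genes, and all lay toward microglia. They were Apoe, Axl, Lpl, Csf1, Gpnmb and Spp1. The study had already reported these 6 as raised in KIN microglia of the same libraries, and the list was chosen with that known. Their share of the list is therefore no separate evidence. Gpnmb, a lysosomal glycoprotein, had 90, 63 and 53 counts in KIN microglia and 5, 2 and 5 in WT microglia, with at most 5 in any astrocyte library (-4.14, SE 0.848, adjusted p = 0.00309, and 0.0868 without WT astrocytes 3). Spp1 had 27, 27 and 33 counts in KIN microglia and 1, 0 and 4 in WT microglia (adjusted p = 0.00673, and 0.228 without WT astrocytes 2). Csf1, a ligand of CSF1R, had 104, 94 and 125 counts in KIN microglia and 40, 16 and 21 in WT (-1.99, SE 0.418, adjusted p = 0.00437). For these genes KIN microglia stood above WT microglia without overlap. The abundant members Ctsd and Cst3 had no called interaction, at -0.27 (adjusted p = 0.809) and -1.06 (adjusted p = 0.191), nor had Itgax (adjusted p = 0.315) or Cst7 (adjusted p = 0.131). Border macrophage markers summed to 124 to 177 CPM in WT microglia and 175 to 223 in KIN, and their part in these values was not tested.

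**Figure D4:**
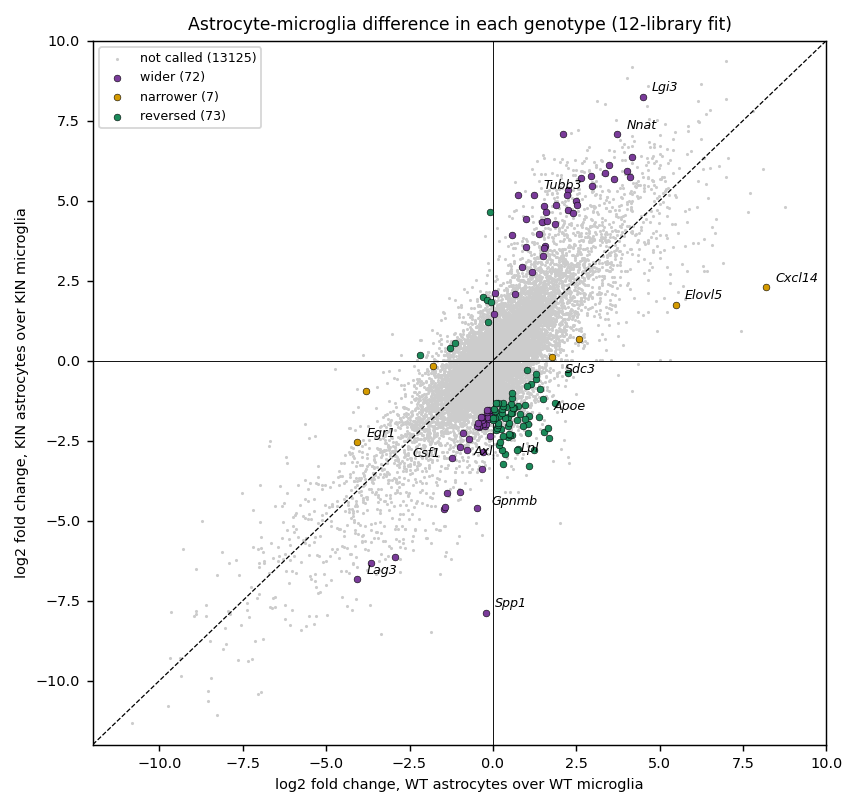
Astrocyte-microglia difference (log2) of each of 13277 genes in WT (horizontal) and KIN (vertical), from the 12-library fit, with genes coloured where the interaction was called. The 72 wider, 7 narrower and 73 reversed genes are marked, and Apoe lies at 1.38 in WT and -1.76 in KIN.

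On the astroglial side the wider differences included genes of neurons and oligodendrocytes. Tubb3, a neuronal tubulin, had 35, 28 and 55 counts in KIN astrocytes and 0, 3 and 0 in KIN microglia, against 22, 17 and 32 and 18, 3 and 5 in WT (3.94, adjusted p = 0.00238, and 0.104 without WT microglia 1). Lgi3 had 280, 195 and 223 counts in KIN astrocytes against 69, 105 and 98 in WT (interaction 3.75, adjusted p = 0.0177, and 0.0887 without KIN microglia 3). Cnp, a myelin enzyme, had 864, 502 and 659 against 290, 444 and 314 (1.62, adjusted p = 0.0406, a call lost under 9 of 17 alternatives). The oligodendrocyte list as a whole summed to 1222 to 1283 CPM in KIN and 686 to 1085 in WT astrocytes, which did not overlap, and its part in the Lgi3 and Cnp values was not tested.

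The 7 narrower differences included Cxcl14, Elovl5, Sdc3 and Sdc4 among astrocyte genes and Egr1 and Rp2 among microglial ones. Cxcl14 had 40, 51 and 29 counts in WT astrocytes and no read in WT microglia, and 21, 12 and 17 in KIN astrocytes against 2, 4 and 4 in KIN microglia (adjusted p = 0.00788). Elovl5, a fatty acid elongase, had 27, 23 and 20 against 0, 1 and 0 in WT and 21, 13 and 23 against 7, 4 and 6 in KIN (adjusted p = 0.0309, up to 0.162 without WT microglia 1). For Elovl5 the astrocyte counts of the genotypes overlapped, whereas for Cxcl14 those of KIN lay below those of WT, and in both cases KIN microglia exceeded WT microglia by a few counts. The proteoglycan Sdc3 differed by 1.78 in WT and 0.12 in KIN (interaction -1.66, adjusted p = 0.0124, up to 0.0788 without KIN microglia 3), and its relative Sdc4 by 2.59 and 0.66 (-1.93, adjusted p = 0.0186, up to 0.0785 without KIN microglia 2). Egr1, an immediate-early factor, had 119, 68 and 71 counts in KIN astrocytes against 31, 42 and 37 in WT astrocytes, with 469, 582 and 488 in KIN and 701, 390 and 499 in WT microglia (1.51, adjusted p = 0.0114, up to 0.0561 without WT astrocytes 3).

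**Figure D5:**
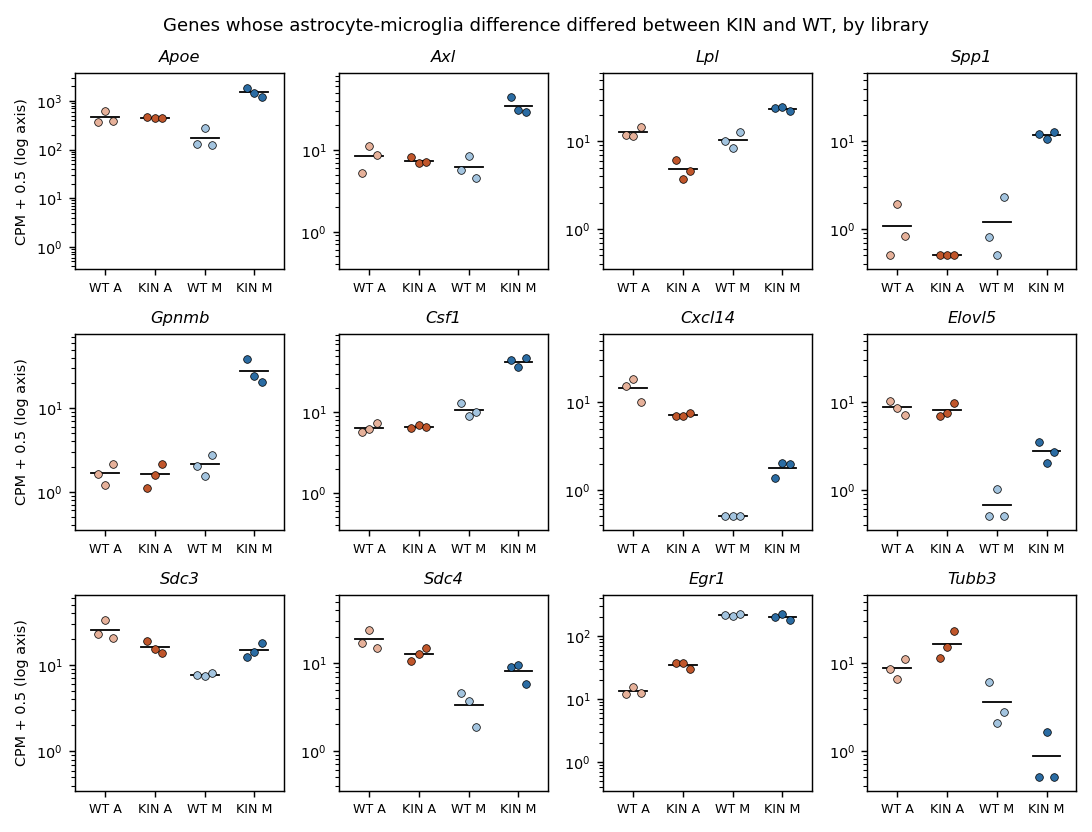
CPM plus 0.5, on a log axis, in each of the 12 glial libraries for 12 genes with a called interaction, with the mean of 3 as a line. Apoe, Axl, Gpnmb, Spp1 and Csf1 are highest in all 3 KIN microglia libraries, and Egr1 is higher in KIN than in WT astrocytes.

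Blurring of type-restricted genes was last described by counts, with no test. A gene was called restricted where each library of its own fraction had at least 10 counts and each of the other at most 3. Of 168 genes restricted to WT astrocytes 14 (8.33%) passed 3 counts in at least 2 KIN microglia libraries, and of 154 restricted to WT microglia 7 (4.55%) did so in KIN astrocytes. Read the other way, 83 of 298 genes restricted in KIN astrocytes (27.9%) passed it in WT microglia and 49 of 268 restricted in KIN microglia (18.3%) in WT astrocytes. Restriction in both genotypes held for 83 astrocyte and 124 microglial genes. Elovl5, Trps1, Cdc42ep4 and Fabp5 were among the 14, with 4, 9 and 9 counts of the repressor Trps1 in KIN microglia against 3, 0 and 3 in WT. Among the 7 were Rp2 with 13, 2 and 5 counts in KIN astrocytes against 0, 2 and 2 in WT, and Inpp5d with 7, 1 and 5 against 1, 1 and 2. The Inpp5d difference was -4.52 on all transcripts and -7.26 on protein-coding ones. Among the WT libraries, microglia 1 and 3 carried more of the astrocyte genes than microglia 2, with 20, 17 and 2 counts of Aldoc, and the order of the shares turned on WT microglia 1, since without it 67 of 566 genes (11.8%) crossed from KIN to WT and 63 of 477 (13.2%) from WT to KIN.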

How the data were processed

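RNA of glial and neuronal fractions, isolated with beads from brains of both genotypes, was sequenced at 3′ ends with molecular identifiers (panRNA-seq). Per the labels and the study's methods, the authors mapped reads to mm39 (submitters' processing notes: cutadapt 4.6, Bowtie2 2.4.4, HTSeq 2.0.2, FastQC 0.11.9, MultiQC 1.23, DESeq2) and deposited raw counts per transcript. Reads were mapped to reference sets in turn, each set receiving the reads left by the one before, and were counted per transcript in union mode without strand and without a minimum mapping quality, so reads that fit several transcripts or an antisense gene cannot be told apart. Deposited normalized columns and the authors' comparison columns (fold changes, p-values) were not used, which left 36 per-sample columns aside. Counts of 116873 transcripts were summed to 35823 symbols and 137 unnamed entries, with transcript types from GENCODE M39 for 99.4%.

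Differences were tested with edgeR 4.0.16 (R 4.3.3, TMM, quasi-likelihood, Benjamini-Hochberg) on 6 KIN libraries, and the interaction with genotype on 12 glial libraries. A call required an adjusted p of at most 0.05 and a log2 change of at least 1 either way. CPM are TMM-scaled over the 12 libraries, and the procedure was tested on simulated data. DESeq2 1.42.0, other filters, its size factors, removal of the 10 most abundant genes, a replicate block, leave-one-out fits and protein-coding transcripts alone were alternatives. KIN libraries held 2478111 to 2931018 counts, and a floor of 3 counts was used for low groups. Genes were named as the given markers, Atxn2, the 12 most abundant restricted genes of each fraction, the list members with the largest and smallest changes, opposed family members and the leading narrower, wider and blurred genes. Further list members are given as examples, chosen after their values were seen. The members and gene lists were chosen with earlier results of these data known. Some genes are not reported here. Replicates of a group differed by more than sampling noise.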

Additional observations from a re-analysis of the deposited data

Results flagged for a closer look

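For 27 named genes the astrocyte-microglia difference differed between KIN and WT by the interaction test (edgeR, adjusted p at most 0.05). Values are interaction log2 fold changes, negative where the KIN difference lay further toward microglia. For Spp1, Cxcl14 and Ttll7 one group of libraries had no read, so the fitted value depends on the prior count and gives no size. Groups of 3 were not tested for single outlying libraries.

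Among genes of myeloid and disease-associated programs the values were -7.67 for Spp1, -4.14 for Gpnmb, -3.14 for Apoe, -2.77 for Axl, -2.66 for Lpl and -1.99 for Csf1. Lag3 had -2.77, the growth factor Pdgfb -2.65, the receptors Cd300lf -2.38 and Fcgr2b -1.81, and the lysosomal sulfatase Arsb -2.94. Lag3 had 228, 201 and 187 counts in KIN and 90, 104 and 47 in WT microglia. For Pdgfb (98, 79 and 92 against 117, 57 and 73) and Fcgr2b (37, 52 and 55 against 64, 18 and 42) the microglia of the genotypes overlapped. Their KIN astrocytes lay below WT astrocytes, with 2, 0 and 1 against 8, 6 and 8 for Pdgfb and 10, 3 and 4 against 17, 16 and 27 for Fcgr2b. Fdft1, squalene synthase, had -1.73. Arsb was uneven within groups, with 258, 103 and 516 counts in WT astrocytes and 304, 161 and 135 in KIN microglia. Apoe, Axl, Lpl and Csf1 kept the call under 17 of 17 alternatives, whereas Fdft1 lost it under 11, Lag3 and Pdgfb under 10 and Fcgr2b under 8.

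Differences that were further toward astrocytes in KIN were 4.97 for Ttll7, 4.4 for Bicc1, 3.94 for Tubb3, 3.75 for Lgi3, 3.42 for Slc24a2, 3.34 for Nnat, 2.62 for Cpe, 2.51 for Sez6l2 and 1.62 for Cnp. Ttll7 lost the call under 9 of 16 alternatives, Cnp under 9 of 17, Bicc1 and Slc24a2 under 4 of 16 and Nnat under 4 of 17. In Slc24a2 the WT microglia libraries differed, with 23, 4 and 5 counts, and without WT microglia 1 its adjusted p was 0.222. Nnat, an imprinted neuronal gene, had 12, 4 and 13 counts in WT microglia and 0, 0 and 2 in KIN microglia.

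The narrower differences included -5.89 for Cxcl14, -3.73 for Elovl5, -1.93 for Sdc4 and -1.66 for Sdc3 among astrocyte genes, and 2.86 for Rp2 and 1.51 for Egr1 among microglial genes. Cxcl14 kept the call under the 16 alternatives that gave an adjusted p, with 0.0483 as the highest, while Rp2 lost it under 9 of 16 and Elovl5 under 7 of 16.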

How the results depend on the processing

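The 4580 calls became 2520 with a mean count of at least 10 (1259 in astrocytes, 1261 in microglia), where fewer genes were tested. Among 207 named genes 185 kept direction and call under every alternative run.

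The interaction moved more. With DESeq2 it was called for 82 genes (45 wider, 31 reversed). Leave-one-out ranges were 69 to 300 in all, 33 to 119 wider, 3 to 15 narrower and 30 to 169 reversed. The count was highest without WT astrocytes 2 (300), and lower without KIN astrocytes 2 (74) or 3 (100), KIN microglia 3 (73), WT astrocytes 1 (91) or 3 (69) and WT microglia 1 (99). The cause was not tested.

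With the replicate number as a block the interaction was called for 358 genes (175 wider, 17 narrower, 166 reversed), including all 152, and 4403 calls of the KIN contrast were shared. Same-numbered KIN fractions correlated at -0.087, -0.0073 and 0.0886 over 2367 genes, so the numbers were not shown to pair the libraries.

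Members called in the fraction a list belongs to (microglia for interferon genes, astrocytes for ataxin-2 partners) under a mean count of at least 10 were 3 for reactive astrocytes, 6 interferon-stimulated, 0 for ataxin-2 partners, 3 neuronal, 1 endothelial, 6 ependymal, 4 border macrophage and 0 other blood. Without a filter 8 endothelial genes were called, on protein-coding transcripts 8 border macrophage genes, and with DESeq2 10 interferon-stimulated genes and 1 ataxin-2 partner. Leave-one-out ranges were 4 to 6 for reactive astrocytes (4 without KIN astrocytes 2), 10 to 16 for interferon-stimulated genes (10 without KIN microglia 3) and 0 to 2 for ataxin-2 partners (0 without KIN microglia 3, 1 without KIN astrocytes 1 or 3 or KIN microglia 1).

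Genes restricted in WT that crossed in KIN numbered 21, or 9 with at least 20 counts in their own fraction, 12 with at most 1 count in the other, and 13 to 63 leave-one-out (13 without KIN microglia 3; 32 to 36 without WT astrocytes 1 or 3 or WT microglia 3; 63 without WT microglia 1). Those restricted in KIN numbered 132, or 66, 63 and 67 to 202 (202 without KIN astrocytes 1, 67 without WT microglia 1, 76 without WT microglia 3). Within 1.5-fold, 170 genes were shared rather than 1869. Depth limits genes under about 10 counts, where a floor of 3 counts hides low expression in the other fraction.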

Other observations

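Some gene groups outside the lists were noticed after their values were seen. The 13 mitochondrially encoded genes were called higher in KIN astrocytes in 10 cases (against 20.3% of all genes) and in microglia in none, with a median of 1.25. The highest count was for mt-Nd4, with 898, 528 and 834 in astrocytes against 356, 265 and 308 in microglia. Ribosomal protein symbols lay the other way, with 42 of 86 called in microglia (against 18.5% of all genes), none in astrocytes and a median of -1.002, and 56 of 78 on protein-coding transcripts alone (median -1.24, against 0.04 over all genes so counted).

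Olfactory and vomeronasal receptor symbols, which glia are not known to use, were called in microglia in 182 of 407 tested and in astrocytes in 1, against 18.5% and 20.3% of all genes, with a median of -1.08. Their median level per library was 2.50, 1.61 and 2.05 CPM in KIN astrocytes, 4.69, 3.78 and 4.49 in KIN microglia, 4.43, 3.92 and 4.6 in WT astrocytes and 4.34, 3.70 and 5.42 in WT microglia. By this median KIN astrocytes were lowest, but the summed CPM of the same symbols did not follow it, with 15200, 23250 and 18780 in KIN astrocytes, 12330, 15770 and 12310 in WT astrocytes, 18840, 11080 and 11260 in KIN microglia and 8151, 19730 and 10710 in WT microglia. Pseudogenes were likewise called in microglia in 186 of 410 (45.4%) and in astrocytes in 16 (3.9%), with a median of -1.17, while 17.6% and 20.9% of protein-coding genes were called.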
